A study of Saccharomyces cerevisiae with 2 samples.

Results

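The enzymes that build adenine nucleotides in budding yeast (Saccharomyces cerevisiae) were followed through 10 genes, ADE1, ADE2, ADE4, ADE5,7, ADE6, ADE8, ADE12, ADE13, ADE16 and ADE17, chosen by their systematic names from the 4579 genes of a deposited codon table. The series holds 2 libraries of the strain yJC2229, 1 of total RNA and 1 of ribosome-protected fragments, and both groups share every other condition the labels give. Cells were taken in mid-log phase at 24 °C from YPD, a rich medium, at pH 6.5 with 2% glucose and added amino acids, and nothing was done to them beforehand. The labels list no genotype beyond the strain name. Footprints, the stretches of mRNA that a ribosome shields from nuclease, were taken from 80S ribosomes after lysis in cycloheximide, a drug that halts elongation. With 1 library of each kind no difference below has a replicate check, no p-value was computed, and the intervals are 95% intervals for counting error only.

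Adenine nucleotides are made from scratch by assembling a purine ring, atom group by atom group, on phosphoribosyl pyrophosphate, until inosine monophosphate (IMP) is formed. IMP is then turned into AMP by one branch and into GMP by another. In yeast the transcription factors Bas1 and Pho2 switch most of these genes on together when purines run short, and cells that lack ADE2 or ADE1 collect an intermediate that turns colonies red. ADE4 encodes the amidotransferase that opens the route, ADE5,7 a bifunctional enzyme that acts both before and after ADE8 and ADE6, and ADE8 and ADE6 the glycinamide ribotide transformylase and the formylglycinamidine ribotide synthetase. ADE2 (carboxylase) and ADE1 (SAICAR synthetase) follow, then ADE13, a lyase that also closes the AMP branch, then the isozymes ADE16 and ADE17, which make IMP, and ADE12, adenylosuccinate synthetase, which commits IMP to AMP.

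All 10 genes were well covered, with 347 to 1535 footprints and 1998 to 29475 reads each, over the minimum of 100 of each that 2939 of the 4579 genes reached and that defines the genes compared below. The reads are those behind the authors' abundance column, whose header names no library, so a footprint to read ratio equals translational efficiency only if that column came from the total RNA. The 4579 listed genes held 3756929 footprints and 21353772 reads. None of the 10 genes overlapped another gene in the RefSeq table, and their reading frames were free of introns. Footprint to read ratios fell steeply with coding length over all genes compared (Spearman rho -0.85), and the 10 genes, with a median of 541.5 codons against 378, are longer than most.

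All 10 genes had more reads per codon than the median gene compared, whose level was 5.58, as had 50% of all genes compared by construction. Together they took 104481 reads, or 0.489% of the reads in the listed genes (0.486 to 0.492), but 8998 footprints, or 0.240% of the footprints there (0.235 to 0.244). Their pooled ratio, the share of footprints over the share of reads, was 0.489 (0.479 to 0.50). The length trend and the reads of each gene would give 9273 footprints, so the observed sum was 0.970 times that (0.950 to 0.991). The low pooled ratio was thus close to what genes of these lengths show.

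Read levels differed 3.47-fold per codon along the route and footprint levels 5.78-fold. ADE4 (YMR300C, chromosome XIII, 865559 to 867091; all coordinates are of sacCer3) held 7340 reads and 630 footprints, or 14.4 reads and 1.23 footprints per codon. ADE5,7 (YGL234W, chromosome VII, 56482 to 58890), with 20419 reads and 1535 footprints, had the highest read level of the 10 genes at 25.4 per codon, and 1.91 footprints per codon. This second enzyme thus stood above the first in both reads and footprints per codon. ADE8 (YDR408C, chromosome IV, 1288215 to 1288859), the shortest gene at 215 codons, had 1998 reads and 347 footprints, 9.29 and 1.61 per codon. ADE6 (YGR061C, chromosome VII, 611889 to 615965), the longest at 1359 codons, had 29475 reads and 741 footprints, 21.7 and 0.545 per codon. ADE6 therefore held the most reads of the 10 genes in total, but per codon its reads came after those of ADE5,7 and ADE13 (24.6). Its footprints per codon were the fewest.

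ADE2 (YOR128C, chromosome XV, 564476 to 566191) had 4193 reads and 817 footprints, 7.33 and 1.43 per codon, the lowest read level of the 10 genes. ADE1 (YAR015W, chromosome I, 169375 to 170295) had 3840 reads and 967 footprints, 12.5 and 3.15 per codon, the highest footprint level. ADE2 and ADE1 were thus low to middling in reads and held more footprints than their reads alone would give. ADE13 (YLR359W, chromosome XII, 844282 to 845730), the lyase used in both the IMP route and the AMP branch, was high in reads and in footprints. It had 11865 reads and 1350 footprints, 24.6 and 2.80 per codon. ADE12 (YNL220W, chromosome XIV, 234413 to 235714), the entry to AMP, had 7785 reads and 853 footprints, 17.9 and 1.97 per codon.

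**Figure D1:**
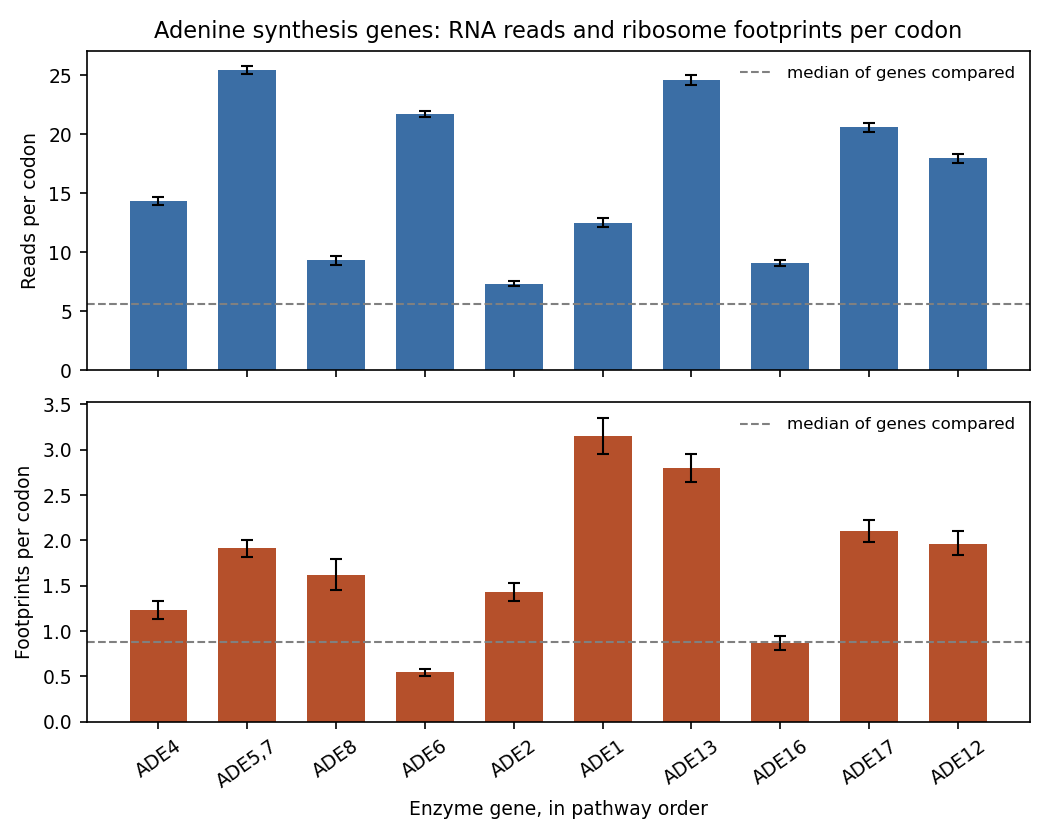
Reads per codon (top) and footprints per codon (bottom) of the 10 adenine synthesis genes, in pathway order from left to right. Bars are single values without replicates, error bars are exact Poisson 95% intervals, and the dashed line is the median of the 2939 genes compared. ADE5,7 leads the reads at 25.4 per codon, ADE1 leads the footprints at 3.15, and ADE6 has 21.7 reads but 0.545 footprints per codon.

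By footprints per codon the order was ADE1, ADE13, ADE17, ADE12, ADE5,7, ADE8, ADE2, ADE4, ADE16 and ADE6. Neighbours whose intervals did not separate them were ADE17 and ADE12 (1.07-fold, 0.979 to 1.17), ADE12 and ADE5,7 (1.03-fold, 0.945 to 1.12), and ADE8 and ADE2 (1.13-fold, 0.994 to 1.28). By reads per codon the order was ADE5,7, ADE13, ADE6, ADE17, ADE12, ADE4, ADE1, ADE8, ADE16 and ADE2, and ADE8 and ADE16 alone were not separated (1.03-fold, 0.974 to 1.08). Across the 10 genes the read and footprint levels per codon had a Spearman rho of 0.27, against 0.80 over all genes compared. Such a small set of genes of unequal length carries no test of that rho or of the difference.

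As ratios, 8 of the 10 genes lay below 1, where 55.1% of all genes compared lay. The median log2 ratio was -0.73, against -0.14 over all genes compared, and 7 of the 10 lay below that median gene. ADE6 (0.143, 0.133 to 0.154), ADE5,7 (0.427, 0.405 to 0.450) and ADE4 (0.488, 0.449 to 0.529) had ratios of at most 0.5, a level that 21.1% of genes reached. The log2 ratio of ADE4 was -1.04, and it passed out of that range with scaling to the median gene (-0.90), without the top codon of each gene (-0.98) and with the abundance column taken as divided by length (-0.80). No ratio reached 2, which 12.5% of genes did, but with the column taken as divided by length ADE1 and ADE8 did, at log2 ratios of 1.49 and 1.46. ADE1 had the highest at 1.43 (1.33 to 1.54), followed by ADE2 at 1.11 (1.03 to 1.19) and ADE8 at 0.987 (0.878 to 1.11). ADE13 (0.647, 0.611 to 0.684), ADE12 (0.623, 0.580 to 0.668), ADE17 (0.580, 0.547 to 0.615) and ADE16 (0.543, 0.495 to 0.594) formed a close group between them.

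**Figure D2:**
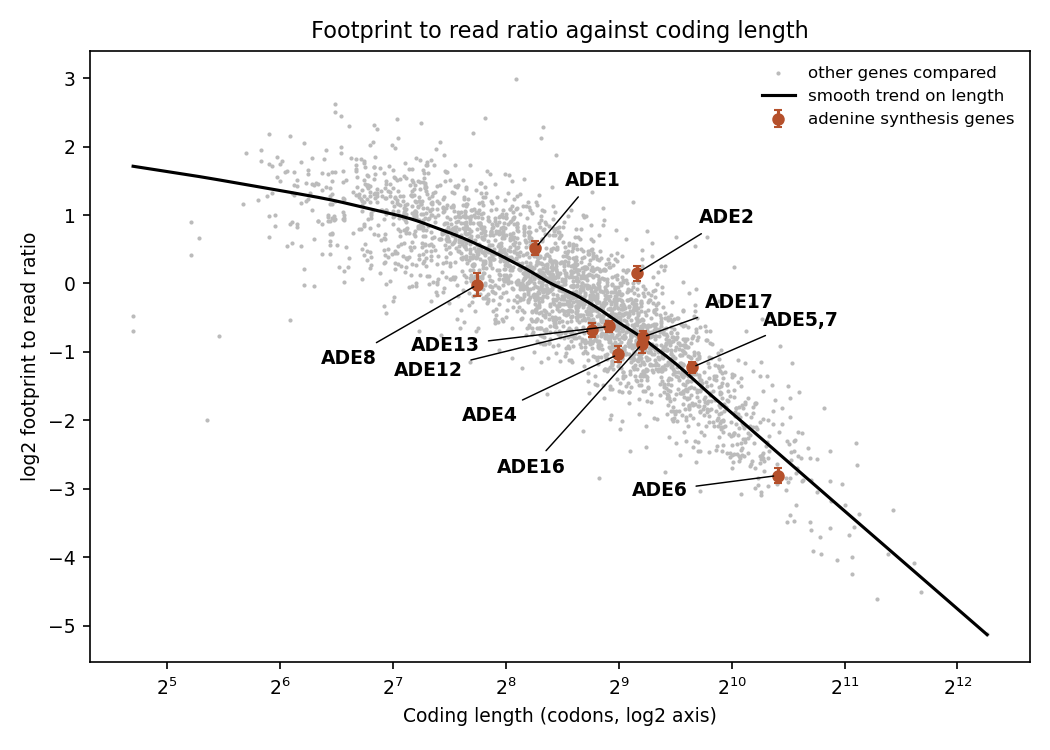
Log2 footprint to read ratio against coding length in codons (log2 axis) for the 2939 genes compared; grey points are single genes, the line is the smooth trend on length, and the labelled points are the 10 adenine synthesis genes with exact binomial 95% intervals. The genes follow the downward trend from ADE8 (215 codons) to ADE6 (1359 codons), with ADE2 farthest above the line.

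Most of that spread went with coding length. Among the 10 genes the ratio and the length had a rho of -0.77, and subtracting the smooth trend on length took the SD of their log2 ratios from 0.91 to 0.44, against 1.07 and 0.54 for all genes compared. After this adjustment 0 of the 10 genes lay 2-fold or more from the trend, where 2.89% of genes lay at least 2-fold above it and 2.35% at least 2-fold below. ADE2 stood highest at 1.85 times the trend (1.71 to 1.99), above 95.6% of the genes compared, and ADE1 followed at 1.30 times (1.21 to 1.40). ADE5,7 was at 1.11 times (1.06 to 1.17), and ADE17 (1.01, 0.952 to 1.07) and ADE16 (0.943, 0.859 to 1.03) lay on the trend within their intervals. Below the trend lay 6 of the 10 genes, as did 48.8% of genes compared, and besides ADE16 these were ADE8 (0.665 times, 0.591 to 0.745), ADE4 (0.723, 0.665 to 0.784), ADE12 (0.770, 0.717 to 0.827), ADE6 (0.796, 0.739 to 0.856) and ADE13 (0.898, 0.849 to 0.951). ADE2 and ADE1, neighbours in the route, thus held the most footprints for their reads and length. The place of ADE6 among the low genes depended on the trend, since a straight line on length put it farthest below, at a log2 of -0.90 against -0.47 for ADE8, -0.38 for ADE4 and -0.24 for ADE12. With a minimum of 30 counts in place of 100, which brings in more genes with few footprints, 7 of the 10 genes in place of 4 lay above the trend, and ADE2 was at a log2 of 1.10.

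The isozymes ADE16 (YLR028C, chromosome XII, 199540 to 201315) and ADE17 (YMR120C, chromosome XIII, 507502 to 509280) allow a comparison at equal length, 592 against 593 codons. ADE16 had 5363 reads and 512 footprints, 9.06 and 0.865 per codon, and ADE17 12203 reads and 1246 footprints, 20.6 and 2.10 per codon. ADE17 was 2.27-fold higher in reads per codon (2.20 to 2.35) and 2.43-fold higher in footprints per codon (2.19 to 2.70). The difference in footprints was matched by that in reads, since the ratio of ADE17 was 1.07 times that of ADE16 with an interval (0.960 to 1.19, normal approximation on the log scale) that includes 1. Counted by composition, 559 residues, or 94.6% of ADE16, have a counterpart of the same amino acid in ADE17 when order is left aside, and 485 codons (82.1%) have a counterpart of the same codon. Composition does not measure the identity of the proteins, which was not analysed here. ADE17 has 29 GCT, 24 CCA and 29 GGT codons against 13, 11 and 18 in ADE16, and 1 GCG, 5 GTG and 0 GGG against 10, 14 and 7. How the authors assigned reads that match both genes is not given in the sources used here, so a share of the counts of each may belong to the other.

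Codon choice in the pathway leaned to the codons that highly expressed yeast genes prefer. These 23 codons made up a median of 59.3% of the sense codons of the 10 genes, against 48.2% over all genes compared, and 9 of the 10 lay above that level. ADE17 (64.5%), ADE12 (62.4%) and ADE13 (61.8%) had the largest shares, and ADE8 (48.1%), ADE16 (50.6%) and ADE2 (52.4%) the smallest. The latter genes were also the lowest in reads per codon, and over the 10 genes the share and the read level had a rho of 0.75, as over all genes compared (0.72). The share of codons that end in G or C set ADE8 apart, at 53.3% (above 95.1% of genes), from ADE4 at 32.0% (above 5.38%), with a median of 33.7% in the pathway and 38.4% over all genes compared.

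Ribosome occupancy within the genes was read as the footprints of a codon over the number its occurrences would receive if the footprints of the gene were spread evenly, and a value of 1 marks an even share. Preferred codons stood below the other sense codons in 10 of the 10 genes, a direction that 85.9% of other genes share. The other sense codons include ATG and TGG, which have no synonym, and the comparison was not matched by amino acid. Summed over the 10 genes the preferred codons were at 0.890 and the other sense codons at 1.14, and over all other genes compared at 0.946 and 1.12. The ratio of the former to the latter ran from 0.566 in ADE2 and 0.663 in ADE16 to 0.911 in ADE8 and 0.929 in ADE5,7. The isozyme ADE16, which uses fewer preferred codons than ADE17 (0.741), also had the lower value of that pair.

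Of the 56 sense codons with at least 20 occurrences in the pathway, the highest were GCG (alanine) at 2.93 (2.45 to 3.48), CCC (proline) at 2.55 (2.11 to 3.05), TCG (serine) at 2.36 (1.86 to 2.94), CCT (proline) at 2.05 (1.80 to 2.32) and CTG (leucine) at 2.01 (1.68 to 2.38). The lowest were TTT (phenylalanine) at 0.481 (0.379 to 0.603), CAA (glutamine) at 0.497 (0.416 to 0.590), AGC (serine) at 0.587 (0.342 to 0.940), TGT (cysteine) at 0.604 (0.435 to 0.816) and TTC (phenylalanine) at 0.613 (0.504 to 0.740). Over these codons the pathway and the other genes had a rho of 0.65, which was 0.14 for counts pooled without gene means, and the fold from lowest to highest was 6.08 in the pathway and 3.87 in the other genes. The values of the pathway rest on fewer counts than those of the other genes.

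Against the other genes, 16 of the 56 codons were lower and 10 higher by more than their counting intervals. These intervals leave out the spread between genes, which for GCG ran from 0.131 to 6.77 within the pathway. How many codons would lie outside for other sets of genes was not counted, so these numbers do not mark the pathway as unusual. The largest shortfalls were AGC (0.587 against 1.26), GTG (valine, 0.841 against 1.57), ACG (threonine, 0.782 against 1.31), CCA (proline, 0.775 against 1.29) and GGA (glycine, 0.829 against 1.30). These are sums, in which genes with many footprints weigh more. Medians over single genes were closer for AGC (0.635 against 0.677) and ACG (0.680 against 0.807). They were 0.576 against 0.862 for GTG and 0.794 against 1.00 for CCA, and GGA was not low (0.821 against 0.729). AGC was below the summed value of the other genes in 8 of 9 genes, ACG in 9 of 10 and GGA in 8 of 10. The shares of other genes below were 65.5%, 63.0% and 65.8%. CCA, the proline codon that yeast prefers, was below the value of the other genes in 10 of the 10 genes, from 0.155 in ADE8 to 1.15 in ADE5,7, as it was in 63.1% of other genes. GTG was also below in 10 of 10, from 0.310 to 1.25, and in 72% of other genes. The largest excesses were TCG (2.36 against 1.45), CGT (arginine, 1.67 against 1.10), TAT (tyrosine, 1.17 against 0.781), GCG (2.93 against 2.08) and ATG (methionine, 1.12 against 0.820). Without the gene that gave most footprints on each, GCG was at 2.01, no longer above the other genes, while CGT (1.20), TAT (0.981), ATG (0.935) and TCG (2.10) were lower than with all 10 genes and still above the other genes. CGT, however, exceeded the summed value of the other genes only in ADE12 and ADE17 and lay below it in 7 genes. Of the other genes, 28.9% were above it. TCG exceeded it in 6 of 8 genes (35.6% of other genes), TAT in 6 of 10 (36.2%), ATG in 7 of 10 (37.8%) and GCG in 4 of 8 (39.0%).

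**Figure D3:**
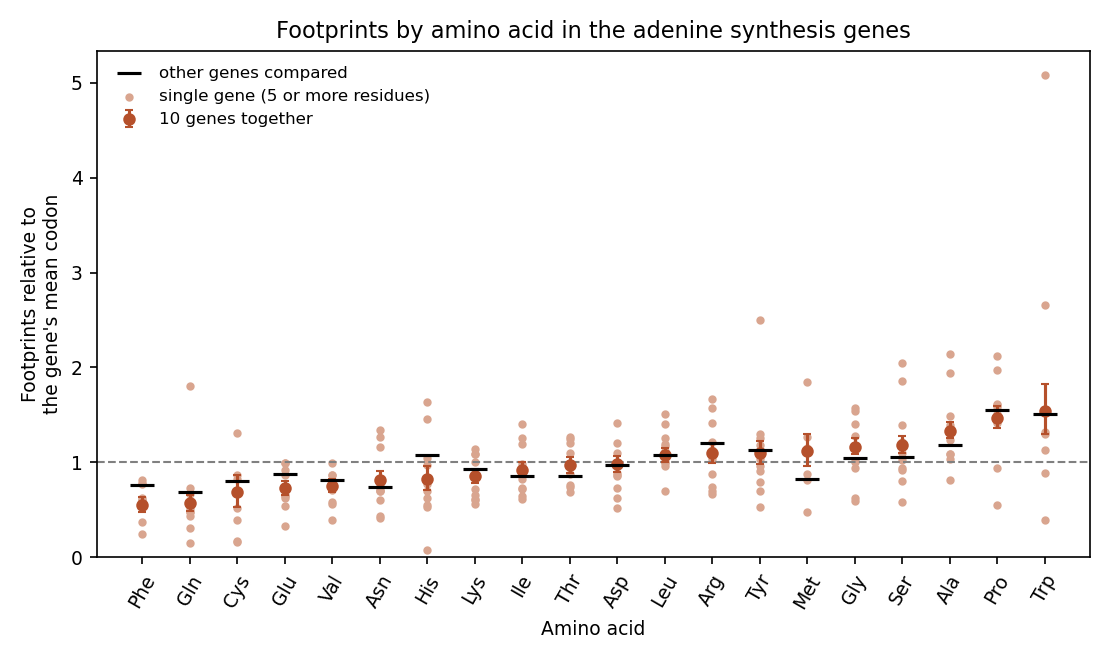
Footprints on the codons of each amino acid relative to the mean codon of the same gene; large points are the 10 genes together with exact Poisson 95% intervals, small points are single genes with 5 or more such residues, and black bars are the other genes compared. Phenylalanine (0.552) and glutamine (0.567) are lowest, and proline (1.47) and tryptophan (1.54) highest, with the ADE16 tryptophan codon at 5.09 as the most distant single gene.

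By amino acid, the pathway was below the other genes by more than its counting interval at 5 of 20 and above them at 5. Here too the intervals leave out the spread between genes, and other sets of genes were not counted. Below were phenylalanine (0.552, 0.475 to 0.637, against 0.759), glutamine (0.567 against 0.683), glutamate (0.727 against 0.879), histidine (0.826, 0.703 to 0.964, against 1.07) and arginine (1.10 against 1.21). Above were methionine (1.12, 0.962 to 1.30, against 0.820), alanine (1.33, 1.25 to 1.42, against 1.18), threonine (0.968 against 0.856), glycine (1.17 against 1.04) and serine (1.19 against 1.06). Single genes were divided at each of the 4 amino acids given with intervals here. Phenylalanine exceeded the value of the other genes in 3 of the 10 genes, with 37.1% of other genes above it, and histidine in 2, with 34.8%. Methionine exceeded it in 7, with 37.8%, and alanine in 6, with 47.1%. Proline was at 1.47 (1.36 to 1.59) against 1.55, from 0.551 in ADE8 to 2.12 in ADE6. Counts in single genes carried larger values still. In ADE2 the 6 GCG codons held 58 footprints, 7.10% of the gene and 6.77 times its mean (5.14 to 8.75). The 3 CCG codons of ADE4 held 25 (6.76 times, 4.37 to 9.98), and the 7 CCC codons of ADE6 held 24 (6.29 times, 4.03 to 9.36). These were the highest values among sense codons with 20 or more footprints, and both proline codons are among the highest of the other genes too, at 4.56 and 2.47. The 5 tryptophan codons of ADE16 held 22 footprints (5.09 times, 3.19 to 7.70), and the 6 CGT codons of ADE12 held 51 (4.32 times, 3.22 to 5.69).

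At the other end, the 8 GAG (glutamate) codons of ADE1 held 0 footprints where its mean would give 25.2 (interval 0 to 0.146 times the mean). The 18 GGT (glycine) codons of ADE16 held 2 footprints (0.128 times the mean, 0.0156 to 0.464), whereas the 29 of ADE17 held 108 (1.77 times, 1.45 to 2.14). GGT thus held almost no footprints in the lower isozyme and the most of any codon in the higher one. GGT also led in ADE5,7 (145 footprints on 57 codons), ADE12 (78 on 39) and ADE4 (54 on 29), where it was at 1.33, 1.02 and 1.51 times the gene mean. These cells of gene and codon were picked after their values were seen.

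A codon that occurs once in a gene has a single place in its frame. The 10 genes have 50 such sense codons, of which 19 held no footprint, and their median was 0.620 times the gene mean. The gene means gave only 0.545 to 3.15 footprints per such site. The same count was not made for the other genes, so whether it is particular to the pathway is not known. The CCC of ADE4 was highest, with 13 footprints and 10.5 times the mean (5.61 to 18.0), followed by the CCG of ADE12 (10 footprints, 5.09 times) and the TCG of ADE1 (15 footprints, 4.76 times). The CCG of ADE8 (6 footprints, 3.72 times) and the GCG of ADE13 (10 footprints, 3.58 times) came next. Stop codons, at which finished chains are released, gave the rest of the highest values. ADE6 held 13 footprints on its TGA, 23.8 times its low mean (12.7 to 40.8), a value above that of 97.2% of genes compared. ADE2 held 17 (11.9 times, 6.93 to 19.1), ADE4 13 (10.5 times, 5.61 to 18.0), ADE8 13 (8.05 times, 4.29 to 13.8) and ADE1 20 (6.35 times, 3.88 to 9.81). ADE12 had 6 (3.05 times, 1.12 to 6.64), and ADE5,7, ADE13 and ADE17 had 2 each, near their gene means at 1.05, 0.716 and 0.952 times. ADE16 had 0 on its stop codon (interval 0 to 4.27 times its mean), and 35% of the genes compared had none.

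The wider network was described with 35 other genes of purine, folate and phosphoribosyl pyrophosphate metabolism, among them the histidine synthesis genes HIS1, HIS4, HIS6 and HIS7, whose route releases an intermediate that ADE16 and ADE17 use. Of the 35, 33 passed the minimum of 100 counts. Their median log2 ratio was -0.30, with 8 of 33 at or below a ratio of 0.5 (21.1% of genes compared) and 2 at or above 2 (12.5%). GCV3, the small H protein of the glycine cleavage complex, was highest with 1986 footprints, 4152 reads and a ratio of 2.72 (2.58 to 2.87), and GCV2, the glycine decarboxylase of the same complex, was lowest with 580 footprints, 15284 reads and 0.216 (0.198 to 0.234). After adjustment for length GCV3 was at 1.57 times the trend and GCV2 at 0.811 times. The lowest adjusted value was that of PRS1, a subunit of the synthetase that makes phosphoribosyl pyrophosphate for the first step, at 0.403 times the trend (0.369 to 0.439) with 549 footprints and 9449 reads. It was the single one of the 33 past 2-fold in either direction, where 2.35% of genes compared lay at least 2-fold below the trend and 2.89% at least 2-fold above.

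ADE3, the enzyme that interconverts the folates from which ADE8 and the isozymes take their formyl groups, had 22716 reads and 1702 footprints, 24.0 and 1.80 per codon, close to the levels of ADE5,7. Its ratio was 0.426 (0.405 to 0.447), or 1.41 times the trend (1.35 to 1.49). The regulators of the pathway were scarce. BAS1 had 67 footprints and 1555 reads (1.92 reads per codon) and PHO2 74 footprints and 493 reads (0.880 per codon), both under the minimum of 100 footprints and below all 10 enzyme genes in reads per codon. The adjusted values of the 10 enzyme genes, from 0.665 to 1.85, lay within the range of the 33, except that ADE2 stood above GCV3, the highest of them.

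**Figure D4:**
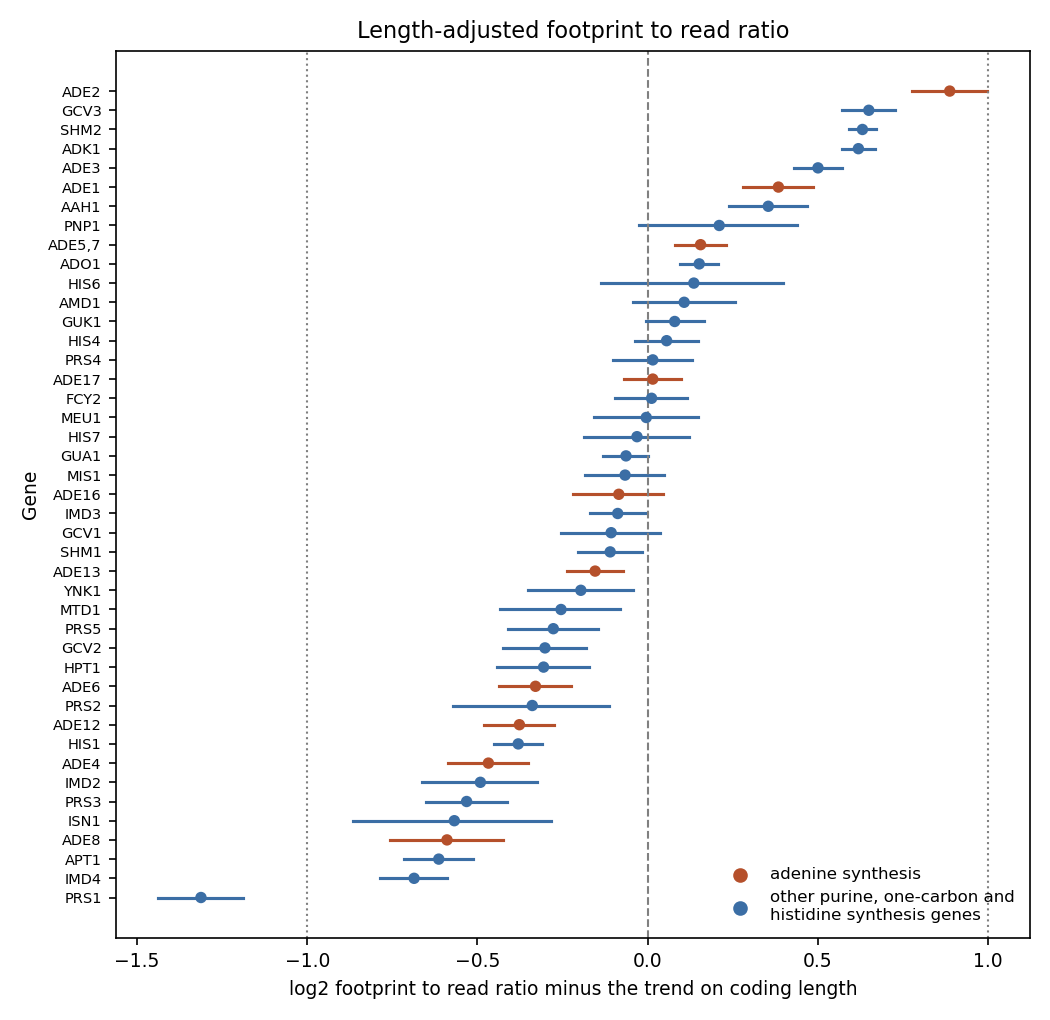
Log2 footprint to read ratio minus the trend on coding length for the 10 adenine synthesis genes and the 33 other purine, one-carbon and histidine synthesis genes compared, 1 row per gene; points are single values, lines are exact binomial 95% intervals, and dotted lines mark 2-fold. ADE2 is the highest of all at 1.85 times the trend, ADE8 the lowest of the 10 at 0.665 times, and PRS1 lies beyond 2-fold below.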

How the data were processed

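Per the submitters' processing notes, cutadapt, Bowtie2, HISAT2, HTSeq and the sacCer3 build were used; their versions and settings, the ribosomal site counted, the use of strand and what was done with ambiguous reads are not given there. The deposited footprint counts are whole numbers per codon and gene, per the file headers. Further columns, whose header word could be read as total RNA, hold the number of occurrences of each codon. The deposited abundance column is headed FPKM, but its values act as CPM that the authors did not divide by length: 100% are whole multiples, within 0.001 reads, of 0.0459 CPM, which gives reads. No library is named for it, and RNA counts per codon were not used.

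Ratios are shares of footprints over shares of reads, with Clopper-Pearson intervals, levels have exact Poisson intervals, and the trend on length is LOWESS over 30% of the genes (statsmodels 0.14.6, Python 3.11.15). Amplified reads are not independent molecules, so intervals cover counting error only. The ratios, codon values and ratio intervals were tested on simulated Poisson counts, the intervals at a single pair of mean counts. The recovery of reads was tested on random whole numbers. The simulated counts held no trend on length, so the adjustment for length was not tested. The members and lists were chosen with earlier results of these data known. The text names all 10 members; of the other network genes, the extremes, BAS1, PHO2 and ADE3; of codons with 20 or more occurrences, the 5 highest, 5 lowest and 5 largest departures each way; and the highest codons of single occurrence. Symbols and coordinates came from a RefSeq table of assembly R64. Promoter motifs and protein identity were planned but not analysed here. Alternatives are given in the closing section.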

Additional observations from a re-analysis of the deposited data

How the results depend on the processing

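No paired analysis was possible because there is only 1 footprint and 1 RNA library, so that no library could be left out either. Scaling to the median gene moved all log2 ratios by the same amount, to a median of -0.60 for the 10 genes. Taking the abundance column as already divided by length, as its header says, gave a median of -0.54 and 2 genes with a ratio of at least 2 in place of 0, ADE1 and ADE8. A minimum of 30 counts put 7 genes in place of 4 above the trend on length and 1 in place of 0 past 2-fold. Without the 8 genes that lead in footprints and the 8 that lead in reads, the 10 genes held 0.281% of footprints and 0.564% of reads. Without ADE6 the other genes held 0.220% and 0.351%. Pooling codon counts without gene means gave a rho of 0.14 between the codon values of the pathway and of other genes. Pooling leaves the level of each gene in the codon values. The main values divide that level out, but as sums they still give more weight to genes with many footprints. Averaged over occurrences, the rho was 0.67. Leaving out stop codons or the top codon of each gene gave medians of -0.72 and -0.69, against -0.73. The alternatives without ADE6, without ADE16 and ADE17 (median -0.66), averaged over occurrences and without the gene with most footprints on a codon were chosen after the data were seen. Codons that occur few times in a gene rest on few footprints.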
